A study of Mus musculus with 8 samples.

Results

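Imprinted genes were examined locus by locus in mouse anterior neural progenitor cells that lacked a poised enhancer of Lhx5, a LIM homeobox transcription factor gene of the developing forebrain. The members were 47 mouse genes that are widely listed as imprinted, out of 46406 genes in the expression table, and fell into 19 imprinted clusters on 10 chromosomes. Of these, 39 were found by their symbol in the table and 8 (H19, Kcnq1ot1, Airn, Copg2, Rian, Peg13, Mirg and Meg3) by their Ensembl identifier through the GENCODE M21 annotation. The filter of a mean of at least 1 FPKM (fragments scaled by gene length and by the mapped total of the library) let 37 members into the tests, and 10 were described by their levels alone.

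An imprinted gene is read mainly from the copy inherited from the mother or mainly from the copy inherited from the father. The choice is set by DNA methylation that is laid down in the germ line at imprinting control regions and kept through cell divisions, and genes under the same control region lie together in clusters. Several of these genes encode regulators of growth and metabolism, and in stem cell lines grown in culture their methylation is known to vary between lines and subclones. Parental alleles were not told apart here: each value is the summed output of both copies, and the words paternal and maternal below refer to the allele known to be expressed.

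Each null library held anterior neural progenitor cells with the PE Lhx5(-109) -/- genotype, in which CRISPR-Cas9 with pairs of guide RNAs had removed the poised enhancer (PE) from E14 mouse embryonic stem cells. A pair of clonal lines was used, with 2 libraries of clone 1 and 2 of clone 2. The 4 wild-type (WT) libraries came from E14 cells with no clone label, so the deletion and the derivation of a line from 1 cell cannot be told apart. Both genotypes were differentiated from LIF- and serum-grown stem cells in serum-free N2B27 medium, first with bFgf and later with the WNT inhibitor Xav939, and polyA RNA was sequenced.

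Lhx5 itself, which lies on chromosome 5 with none of the members, stood at 1.24 and 0.854 FPKM in clone 1, 1.90 and 1.26 in clone 2 and 16.9, 17.5, 16.2 and 15 in WT, and its log2 fold change in null cells against WT was -2.93 ± 0.13 (SE, limma adjusted p = 8.12e-05). Depth was known only through the authors' mean read counts, which summed to 26864352 reads in null and 26693189 in WT. Clone 1 replicate 2 stood apart in its RNA makeup: Rmrp, Rn7sk and Rpph1, RNAs without a poly(A) tail, summed to 734 FPKM there, against 12.7 to 58.8 FPKM in the other 7 libraries. The neural progenitor markers Sox1, Sox2, Pax6, Nes and Cdh2 summed to 221 to 245 FPKM in clone 1, 267 to 276 FPKM in clone 2 and 271 to 290 FPKM in WT, mostly Sox2. Within that sum Pax6 was 17.8 and 11.1 FPKM in clone 2 against 36.2 to 39.8 FPKM in WT, while Sox1, Nes and Cdh2 lay below WT in clone 1 and above it in clone 2. Neuron markers (Elavl3, Dcx, Stmn2 and Map2) summed to 55.8 to 63.2 FPKM in clone 1, 49.9 to 51.7 FPKM in clone 2 and 62.3 to 64.5 FPKM in WT. In clone 2, Stmn2 was 23.3 and 17.2 FPKM against 29.7 to 36.85 FPKM in WT. Elavl3 also lay below WT there, while Map2 overlapped it. In clone 1, Elavl3 lay above WT, and Stmn2 and Map2 overlapped it. Dcx was under 1 FPKM in all 8 libraries. Neural crest markers (Sox10, Foxd3, Tfap2a, Snai2 and Ets1) summed to 10.6 to 14.1 FPKM in clone 1, 5.72 to 7.13 FPKM in clone 2 and 6.99 to 9.73 FPKM in WT. Most of that sum was Ets1. Sox10 went the other way, at 0.70 and 0.78 FPKM in clone 1 against 1.04 to 1.23 FPKM in WT. In clone 1, Foxd3 and Tfap2a lay above WT, and Snai2 overlapped it. Mesoderm markers (T, Tbx6, Mesp1 and Twist1) summed to 7.64 to 8.33 FPKM in clone 1, 4.29 to 4.53 FPKM in clone 2 and 4.61 to 6.32 FPKM in WT. Only Twist1 reached 1 FPKM, at 7.32 and 6.69 FPKM in clone 1, 3.89 and 3.33 in clone 2 and 3.85 to 5.30 in WT. The pluripotency markers Pou5f1, Nanog, Zfp42, Esrrb and Klf4 summed to 57.7 to 62.5 FPKM in clone 1, 14.4 to 18.2 FPKM in clone 2 and 24.1 to 38.4 FPKM in WT. Pou5f1 made up most of that sum. Esrrb and Klf4 were under 1 FPKM throughout, and Esrrb lay below WT in clone 1. All 5 endoderm and all 5 trophoblast markers were under 1 FPKM in all 8 libraries. The part of these markers in the differences below was not tested. In bulk RNA, fewer cells of a kind and less RNA per cell cannot be told apart.

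Most imprinted genes were expressed in the WT cells. In WT, 36 of the 47 members averaged at least 1 FPKM, and Nap1l5 passed the filter only through its higher level in the null libraries. Rian, a long non-coding RNA that hosts small nucleolar RNAs, was highest at 376, 364, 352 and 361 FPKM in WT. Gnas, which encodes the stimulatory G protein alpha subunit, followed at 328, 315, 319.7 and 320.5 FPKM, and the paternally expressed hydrolase-fold gene Mest at 310.5, 260.2, 306 and 301.5 FPKM. The WT ranges of these leading genes did not overlap. Commd1, a regulator of copper metabolism and NF-kB, and the non-coding RNA Meg3 came next with WT means of 145 ± 4.59 and 142 ± 5.83 FPKM (SD, n = 4), which did not differ beyond their spread. At the other end, H19, Plagl1, Ascl2, Ddc, Calcr, Rtl1, Kcnq1ot1, Usp29, Zim1 and Peg13 stayed under 1 FPKM in all 4 WT libraries.

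**Figure D1:**
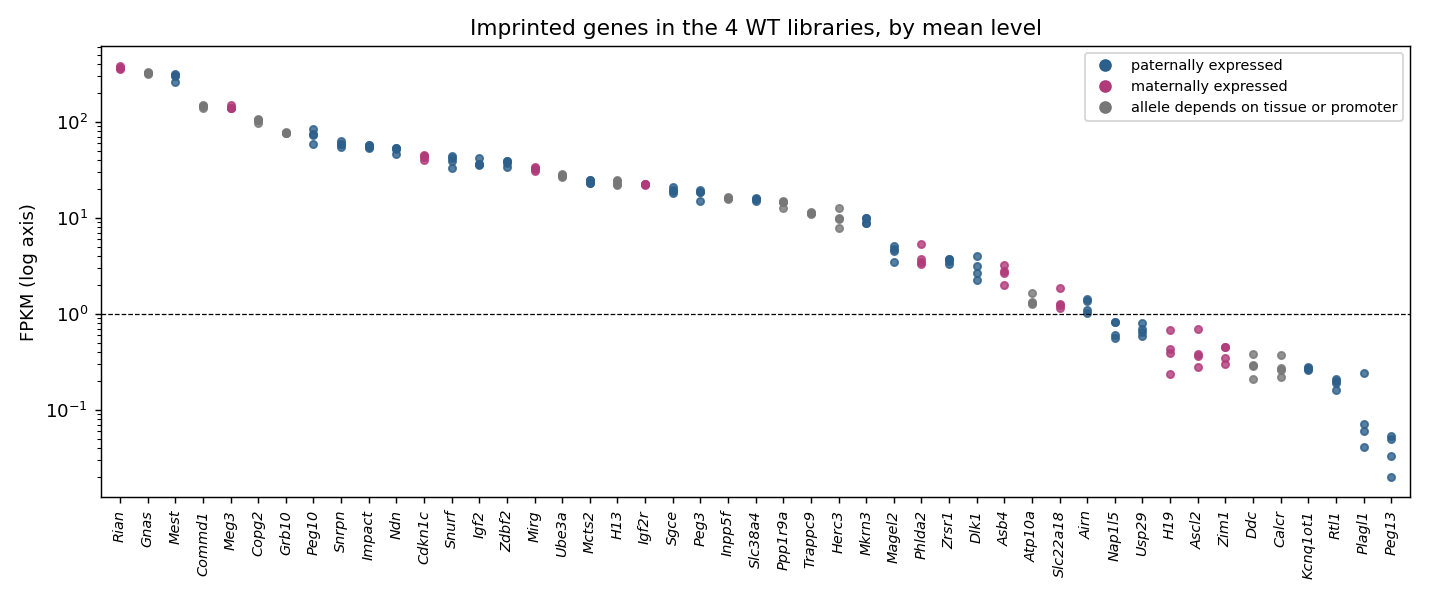
FPKM (log axis) of the 47 imprinted genes in the 4 WT libraries, ordered by mean, with a point per library coloured by the allele known to be expressed and a dashed line at 1 FPKM. Rian, Gnas and Mest lead, 36 genes average at least 1 FPKM, and the paternally and maternally expressed genes are spread over the whole range.

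More imprinted genes passed the threshold in the comparisons of single clones than in that of both clones with WT. In null cells of both clones combined against WT, 1 of 37 tested members passed the threshold, beside 0.0551% of the 14516 genes tested. That count was 0 with an estimated correlation within lines (adjusted p = 1.00 for the member called), and 9 when the mean of both clones was taken from the fit of 3 groups. In that last fit, whose error does not hold how lines vary, 105 of the 14516 genes tested were called, 34 higher and 71 lower. The called member was Sgce, which was lower, and no member was higher, beside 0.0482% lower and 0.00689% higher of all genes. In clone 1 against WT, 24 members passed, 9 higher and 15 lower, which is 64.9% of the members beside 15.6% of all genes tested (4.17% higher and 11.5% lower). In clone 2 against WT, 15 members passed, 11 higher and 4 lower, or 40.5% beside 14.0% (7.07% higher and 6.96% lower). Between clone 2 and clone 1, 25 members passed, 17 higher and 8 lower in clone 2, or 67.6% beside 39.9% (24.9% higher and 15.0% lower), and for Peg10 this rests on 1 usable library of clone 2. Since Nap1l5 entered the tests only through its null libraries, its higher calls in both clones were bound up with the filter. Without it, 23 of 36 members passed in clone 1, 8 higher and 15 lower, and 14 of 36 in clone 2, 10 higher and 4 lower. The clone comparisons share the WT libraries and the estimate of error, which reflects how libraries of the same line vary but not how lines vary.

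The split of calls between higher and lower depended on the scaling for all genes more than for the members. Of all genes, 606 were higher and 1665 lower in clone 1 against WT, and 959 higher and 984 lower after median-of-ratios rescaling. Between clone 2 and clone 1, 3621 genes were higher and 2178 lower, and 2962 and 2928 after rescaling. The members split into 9 higher and 13 lower in clone 1 after rescaling. The median log2 fold change of the members was -0.11 in clone 1 beside -0.05 over all genes, 0.00 in clone 2 beside 0 over all genes, and 0.20 for clone 2 minus clone 1 beside 0.05.

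The single libraries mattered for these counts. Without clone 1 replicate 2, 9 members remained called in clone 1, 4 higher and 5 lower, when 445 of all 14515 genes tested were called. Without clone 2 replicate 2, 5 members were called in clone 2, 4 higher and 1 lower, when 172 of all 14514 genes tested were called. In these fits a clone is left with 1 library, which is assumed to vary like the other groups. The members that passed in clone 1 in each of the 8 fits that left out 1 library were Meg3, Rian, Mirg, Grb10, Mest, Copg2, Sgce, Impact and Zrsr1. Those that did so in clone 2 were Peg3, Sgce, Snrpn and Ndn.

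Counted without a model, the clones separated from WT in many members, as they did in many genes. Both clone 1 libraries lay outside the WT range in 28 of the 37 tested members, 10 above and 18 below, beside 41.3% of all genes tested (12.1% above and 29.2% below). Clone 2 did so in 24 members, 15 above and 9 below, beside 47.4% (24.7% above and 22.8% below). The clones did not overlap each other in 30 members, with clone 2 above in 20 and below in 10, beside 68.0% (40.2% above and 27.8% below). Without Nap1l5, clone 1 lay above WT in 9 of 36 members and clone 2 in 14.

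By known allele, the clones showed different counts. Of 8 tested maternally expressed members, 5 were higher and 2 lower in clone 1, with a median log2 fold change of 0.36, beside 4.17% higher and 11.5% lower of all genes. In clone 2, limma called 0 of these 8, with 2 at an unadjusted p under 0.05 and a median of -0.05. Of 18 tested paternally expressed members, 4 were higher and 7 lower in clone 1, with a median of -0.13. In clone 2, 9 of these 18 were higher and 3 lower, with a median of 0.43, beside 7.07% higher and 6.96% lower of all genes. Without Nap1l5, 3 of 17 paternally expressed members were higher in clone 1 and 8 in clone 2. The 11 tested members whose expressed allele depends on tissue or promoter gave 6 lower calls in clone 1, and 2 higher and 1 lower in clone 2. Members of the same cluster are linked, so these counts are not of independent loci. The maternally expressed members higher in clone 1 were Meg3, Rian and Mirg of the Dlk1-Meg3 cluster, and Phlda2 and Slc22a18 of the Kcnq1ot1 domain. Among the paternally expressed members higher in clone 2, Snrpn, Ndn, Magel2 and Mkrn3 share the Snrpn-Ube3a cluster.

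**Figure D2:**
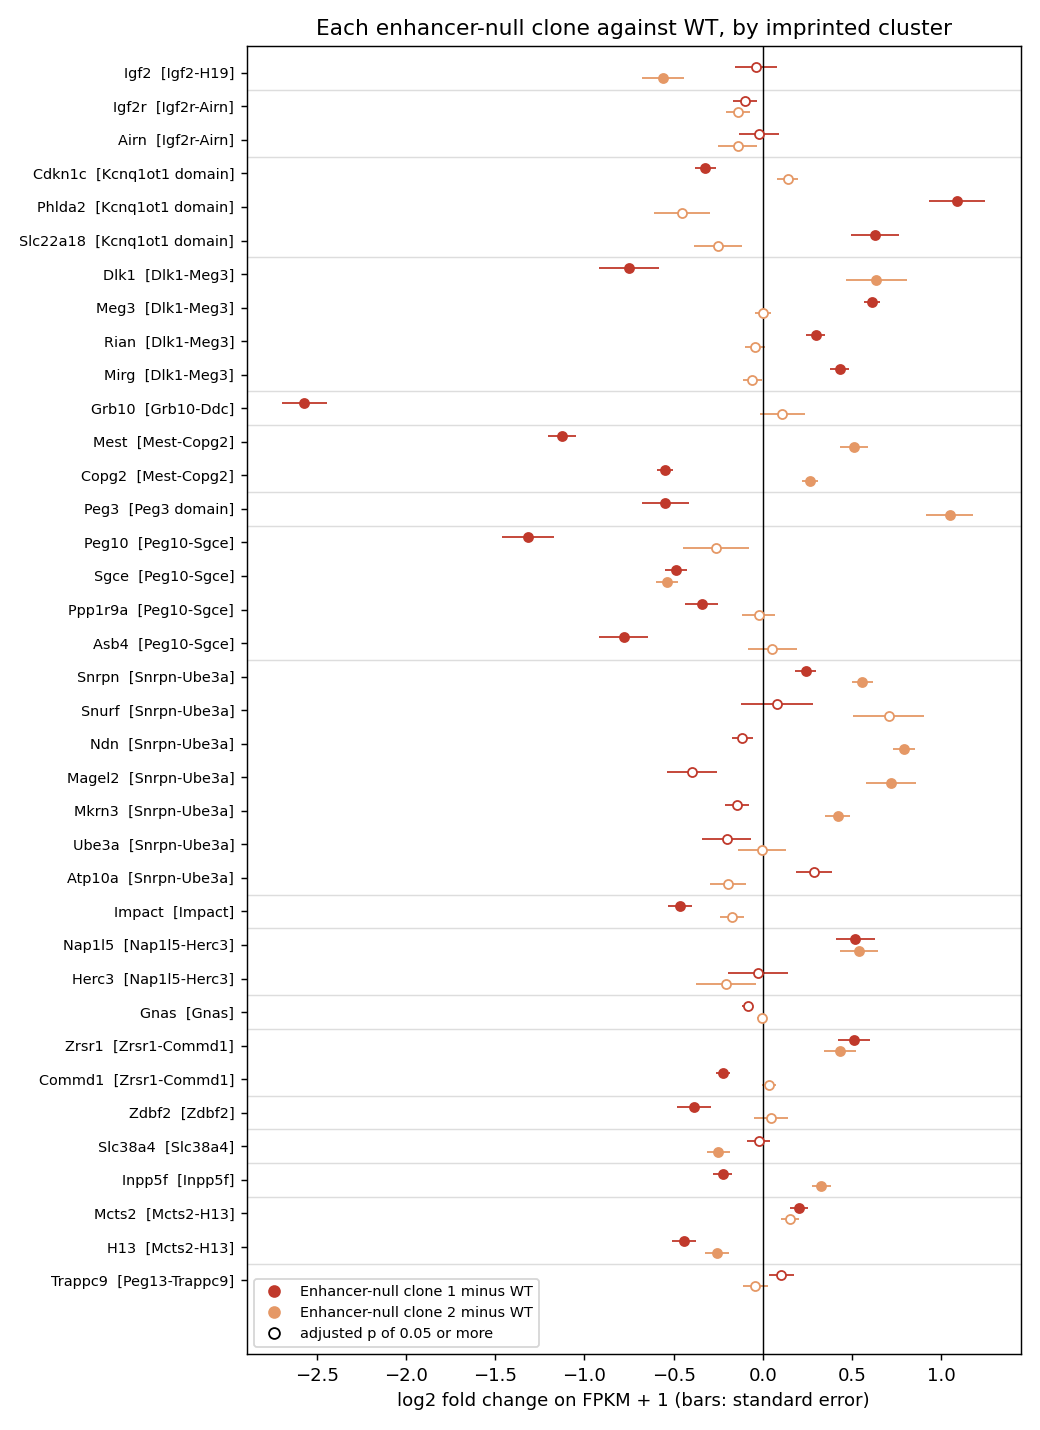
Log2 fold change on FPKM + 1 against WT of the 37 tested imprinted genes in clone 1 and in clone 2, grouped by cluster, with bars for the standard error and open points for adjusted p of 0.05 or more. Grb10 in clone 1 lies farthest from 0 at -2.57, Mest, Copg2, Peg3, Dlk1 and Inpp5f lie below 0 in clone 1 and above 0 in clone 2, and Sgce, H13, Snrpn, Nap1l5 and Zrsr1 lie on the same side in both clones.

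Of the 37 tested members, Grb10 showed the biggest change on the log2(FPKM + 1) scale in the clone comparisons. This gene (chr11:11930508-12038683, minus strand in GRCm38) encodes an adaptor protein that restrains insulin and IGF receptor signalling, and it is expressed from the maternal copy in most tissues and from the paternal copy through separate promoters in neurons. It stood at 14.6 and 9.89 FPKM in clone 1, 86.3 and 79.4 in clone 2 and 76.7, 77.9, 75.6 and 76 in WT. Clone 1 lay far below the other libraries, and clone 2 lay slightly above WT. The log2 fold change of clone 1 was -2.57 ± 0.12 (SE, limma adjusted p = 0.000108), that of clone 2 was 0.11 ± 0.12 (SE, limma adjusted p = 0.596), and clone 2 minus clone 1 was 2.68 ± 0.14 (SE, limma adjusted p = 9.98e-05). Its neighbour Ddc, which encodes aromatic L-amino acid decarboxylase, stayed between 0.209 and 0.419 FPKM in all 8 libraries. The 4 null libraries of Grb10 surrounded those of WT, so that both clones combined gave -1.23 ± 0.72 (log2 ± SE, limma adjusted p = 1).

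Mest and Copg2 moved together in each clone. Mest (chr6:30723547-30748465, plus strand) stood at 140.5 and 128 FPKM in clone 1, 400.3 and 439.8 in clone 2 and 310.5, 260.2, 306 and 301.5 in WT. Clone 1 was below and clone 2 above every WT library. The log2 fold change was -1.13 ± 0.08 (SE, limma adjusted p = 0.000451) in clone 1 and 0.51 ± 0.08 (SE, limma adjusted p = 0.00937) in clone 2. Copg2 (chr6:30747554-30896794, minus strand), which encodes a gamma subunit of the COPI vesicle coat and overlaps the end of Mest on the other strand by 912 bases, stood at 69 and 70.5 FPKM in clone 1, 119.6 and 128 in clone 2 and 106, 97.2, 103 and 103 in WT. Its log2 fold changes were smaller at -0.55 ± 0.05 (SE, limma adjusted p = 0.000634) in clone 1 and 0.27 ± 0.05 (SE, limma adjusted p = 0.0106) in clone 2.

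The pair differed between the clones by 1.64 for Mest and 0.82 for Copg2 on the log2 scale (clone 2 minus clone 1, limma adjusted p = 7.54e-05 and 7.93e-05). The ratio of Mest to Copg2 was 2.04 and 1.82 in clone 1, 3.35 and 3.44 in clone 2, and 2.68 to 2.96 in WT. Both clone 2 calls against WT were lost without clone 2 replicate 2, at adjusted p = 0.11 for Mest and 0.138 for Copg2. No source used here says whether counting used strand, so reads of the overlap could belong to either gene.

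Peg3 was lower in clone 1 and higher in clone 2. The gene (chr7:6703892-6730431, minus strand), which encodes a zinc finger transcription factor and is read from the paternal copy, stood at 13.1 and 10.7 FPKM in clone 1, 33.7 and 42.6 in clone 2 and 19.5, 14.9, 18.7 and 18.4 in WT. All clone 1 libraries were below and both clone 2 libraries above the WT range. The log2 fold change was -0.55 ± 0.13 (SE, limma adjusted p = 0.0298) in clone 1, 1.05 ± 0.13 (SE, limma adjusted p = 0.005) in clone 2, and 1.60 ± 0.15 (SE, limma adjusted p = 0.000393) for clone 2 minus clone 1. The clone 1 call was lost without clone 1 replicate 2 (adjusted p = 0.190), WT replicate 1 (adjusted p = 0.0734), WT replicate 3 (adjusted p = 0.0776) or WT replicate 4 (adjusted p = 0.0783). Usp29, a ubiquitin protease gene that starts beside Peg3 on the other strand, was too low to be tested at 0.491 and 0.364 FPKM in clone 1, 1.02 and 0.825 FPKM in clone 2 and 0.593 to 0.801 FPKM in WT. Zim1, a maternally expressed zinc finger gene of the same domain, stood at 0.204 and 0.269 FPKM in clone 1, 0.499 and 0.472 FPKM in clone 2 and 0.297 to 0.4503 FPKM in WT. In both of these low genes, as in Peg3, clone 1 lay below and clone 2 above all WT libraries.

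In the Dlk1-Meg3 cluster, Dlk1 was lower in clone 1 while the maternally expressed Meg3, Rian and Mirg were higher. Dlk1 (chr12:109452823-109463336, plus strand), which encodes a transmembrane protein related to Notch ligands and is read from the paternal copy, stood at 1.63 and 1.11 FPKM in clone 1, 4.71 and 5.65 in clone 2 and 3.13, 2.27, 3.98 and 2.65 in WT. Clone 1 was below and clone 2 above the WT range, with log2 fold changes of -0.75 ± 0.17 (SE, limma adjusted p = 0.0228) and 0.64 ± 0.17 (SE, limma adjusted p = 0.0406). Meg3 (chr12:109541001-109571726, plus strand), a maternally expressed long non-coding RNA, stood at 224 and 211.5 FPKM in clone 1, 145 and 139 in clone 2 and 138, 150.5, 141 and 138 in WT. Both clone 1 libraries exceeded all others, and clone 2 lay within the WT range. Its log2 fold change was 0.61 ± 0.05 (SE, limma adjusted p = 0.000367) in clone 1 and 0.00 ± 0.05 (SE, limma adjusted p = 0.977) in clone 2.

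Rian and Mirg, the maternally expressed hosts of small nucleolar RNAs and microRNAs downstream of Meg3, followed it in clone 1. Rian stood at 474 and 421 FPKM in clone 1, 368 and 337 in clone 2 and 376, 364, 352 and 361 in WT. Its log2 fold change was 0.30 ± 0.05 (SE, limma adjusted p = 0.0114) in clone 1 and -0.04 ± 0.05 (SE, limma adjusted p = 0.636) in clone 2. Mirg stood at 43.2 and 45.2 FPKM in clone 1, 31.9 and 30.5 in clone 2 and 30.6, 33.9, 32.3 and 33.3 in WT. Mirg had a log2 fold change of 0.43 ± 0.05 (SE, limma adjusted p = 0.00347) in clone 1 and -0.06 ± 0.05 (SE, limma adjusted p = 0.501) in clone 2. For all 3 RNAs, both clone 1 libraries lay above every WT library. The ratio of Meg3 to Dlk1 was 137 and 191 in clone 1, 30.8 and 24.6 in clone 2 and 35.4 to 66.2 in WT, while Rian over Meg3 was 2.11 and 1.99 in clone 1, 2.53 and 2.43 in clone 2 and 2.42 to 2.72 in WT. Both clone 1 values of the second ratio lay below all others.

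The direct test of clone 2 minus clone 1 gave 1.39 ± 0.20 (log2 ± SE, limma adjusted p = 0.0012) for Dlk1 and -0.61 ± 0.05 (log2 ± SE, limma adjusted p = 0.000235) for Meg3. It gave -0.34 ± 0.06 (log2 ± SE, limma adjusted p = 0.00338) for Rian and -0.49 ± 0.06 (log2 ± SE, limma adjusted p = 0.000736) for Mirg. The clone 1 call of Dlk1 was lost without clone 1 replicate 2 (adjusted p = 0.159) or WT replicate 1 (adjusted p = 0.0597), and its clone 2 call without clone 2 replicate 1 (adjusted p = 0.0707), clone 2 replicate 2 (adjusted p = 0.314), WT replicate 1 (adjusted p = 0.0651), WT replicate 2 (adjusted p = 0.0686) or WT replicate 4 (adjusted p = 0.0924). The clone 2 call was also lost without trend and robust moderation (limma adjusted p = 0.0646). Rtl1, a retrotransposon-derived gene read from the paternal copy opposite a maternal antisense RNA, was at 0.307 and 0.4799 FPKM in clone 1, 0.281 and 0.186 FPKM in clone 2 and 0.162 to 0.207 FPKM in WT. Clone 1 lay above WT, on the same side as the maternally expressed RNAs, and clone 2 overlapped WT. Rtl1 was too low for the main tests.

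**Figure D3:**
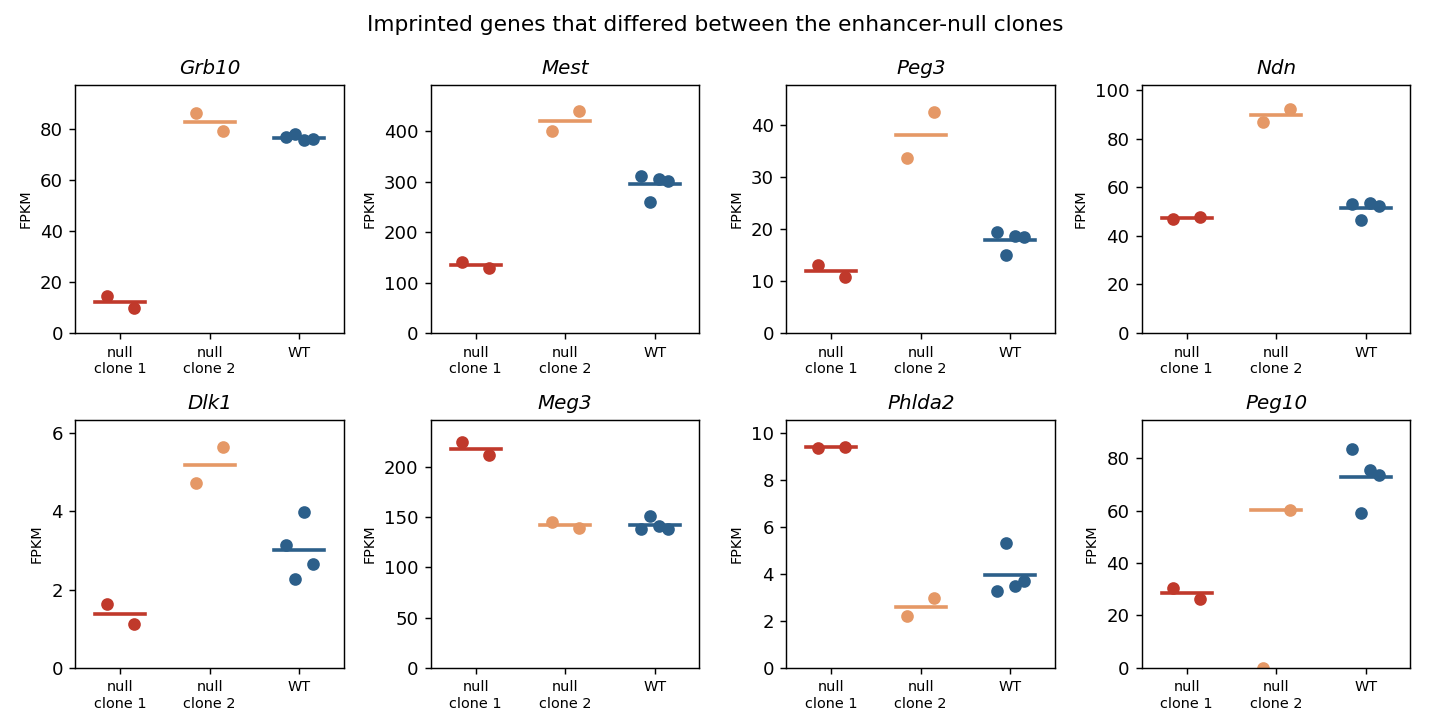
FPKM of 8 imprinted genes in the 2 libraries of clone 1, the 2 of clone 2 and the 4 of WT, with a point per library and a bar at the group mean (for Peg10 without the library listed at 0). Grb10 is low in clone 1 alone, Mest, Peg3 and Dlk1 are low in clone 1 and high in clone 2, Ndn is high in clone 2, and Meg3 and Phlda2 are high in clone 1.

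Sgce was lower in both clones, and the other tested genes of its cluster were lower in clone 1. Sgce (chr6:4674350-4747207, minus strand), which encodes epsilon-sarcoglycan and is read from the paternal copy, stood at 13.8 and 13.3 FPKM in clone 1, 13.4 and 12.8 in clone 2 and 19.1, 20.7, 18.2 and 19.6 in WT. No null library reached the lowest WT library. Its log2 fold change was -0.51 ± 0.05 (SE, limma adjusted p = 0.0339) in null cells of both clones together. It was -0.48 ± 0.06 (log2 ± SE, limma adjusted p = 0.00378) in clone 1 and -0.54 ± 0.06 (log2 ± SE, limma adjusted p = 0.00373) in clone 2, and clone 2 minus clone 1 was -0.05 ± 0.07 (log2 ± SE, limma adjusted p = 0.606). The call over both clones is close to the threshold: it was lost without clone 1 replicate 2 (adjusted p = 0.127), clone 2 replicate 1 (adjusted p = 0.110), clone 2 replicate 2 (adjusted p = 0.0634), WT replicate 1 (adjusted p = 0.195), WT replicate 2 (adjusted p = 0.163), WT replicate 3 (adjusted p = 0.0629) or WT replicate 4 (adjusted p = 0.174), with all genes kept (adjusted p = 0.0501), and with libraries of a line treated as correlated (adjusted p = 1.00). The calls of each clone against WT passed in every fit that left out 1 library.

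Peg10, a retrotransposon-derived gene that starts beside Sgce on the other strand, had another pattern over the clones. Peg10 (chr6:4747306-4760517, plus strand) stood at 30.6 and 26.4 FPKM in clone 1, 60.1 FPKM in clone 2 replicate 2 and 83.5, 59.0, 75.4 and 73.6 FPKM in WT. It was listed at 0 FPKM in clone 2 replicate 1, which was treated as a failed estimate and left out of its fit. The log2 fold change of clone 1 was -1.32 ± 0.14 (SE, limma adjusted p = 0.00694), and that of clone 2, with 1 library, -0.26 ± 0.19 (SE, limma adjusted p = 0.400). Clone 1 lay below all other usable libraries, and clone 2 replicate 2 lay within the WT range. The clone 1 call was lost without clone 1 replicate 2 (adjusted p = 0.0571) and when the zero was kept as a value (adjusted p = 0.628). The ratio of Peg10 to Sgce was 2.21 and 1.98 in clone 1, 4.71 in clone 2 replicate 2 and 2.85 to 4.37 in WT.

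Farther along the cluster, Asb4, a maternally expressed ubiquitin ligase adaptor gene, stood at 1.14 and 1.10 FPKM in clone 1, 2.46 and 3.13 in clone 2 and 3.24, 2.01, 2.79 and 2.63 in WT. Clone 1 was lower at -0.78 ± 0.14 (log2 ± SE, limma adjusted p = 0.0107), a call lost without clone 1 replicate 2 (adjusted p = 0.0753). Ppp1r9a, which encodes the actin-binding protein neurabin, stood at 12.3 and 9.74 FPKM in clone 1, 14.2 and 13.7 in clone 2 and 14.9, 12.8, 14.5 and 14.5 in WT. Its clone 1 value of -0.34 ± 0.09 (log2 ± SE, limma adjusted p = 0.0408) was just past the threshold and was lost after rescaling (adjusted p = 0.0558) and in 6 of 8 fits that left out 1 library, at adjusted p = 0.057 to 0.233. These were the fits without either clone 2 library, clone 1 replicate 2, or WT replicate 1, 3 or 4, and without clone 1 replicate 2 the value was -0.19. Calcr, the calcitonin receptor gene, stayed between 0.187 and 0.373 FPKM and was not tested.

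In the Snrpn-Ube3a cluster, 4 of the 7 tested members passed in clone 2, all higher and all paternally expressed, beside 14.0% of all genes called and 7.07% called higher. Snrpn (chr7:59982495-60140219, minus strand), which encodes a spliceosomal core protein, stood at 70.8 and 68.3 FPKM in clone 1, 89.7 and 84.3 in clone 2 and 58.7, 63.1, 54.0 and 59.2 in WT. All null libraries lay above all WT libraries, with log2 fold changes of 0.24 ± 0.06 (SE, limma adjusted p = 0.0303) in clone 1 and 0.56 ± 0.06 (SE, limma adjusted p = 0.00299) in clone 2. The clone 1 value was lost without clone 1 replicate 1 (adjusted p = 0.0990), clone 1 replicate 2 (adjusted p = 0.106), WT replicate 1 (adjusted p = 0.0691), WT replicate 3 (adjusted p = 0.0561) or WT replicate 4 (adjusted p = 0.0709), and without trend and robust moderation (adjusted p = 0.0602). Snurf, a short reading frame on the same transcript, had 32.9 to 81.5 FPKM over the 8 libraries and no call, and its values may share reads with Snrpn, within which it lies.

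Ndn (chr7:62346569-62350262, plus strand), which encodes the MAGE family protein necdin, stood at 46.8 and 47.8 FPKM in clone 1, 86.9 and 92.2 in clone 2 and 52.9, 46.4, 53.4 and 52.4 in WT. Clone 2 lay far above all other libraries, with a log2 fold change of 0.79 ± 0.06 (SE, limma adjusted p = 0.000589), and clone 1 overlapped WT at -0.11 ± 0.06 (SE, limma adjusted p = 0.234). Magel2, another MAGE family gene, stood at 3.06 and 3.20 FPKM in clone 1, 6.82 and 9.22 in clone 2 and 5.09, 3.50, 4.71 and 4.56 in WT. Magel2 had a log2 fold change of -0.40 ± 0.14 (SE, limma adjusted p = 0.0878) in clone 1 and 0.72 ± 0.14 (SE, limma adjusted p = 0.0171) in clone 2. Mkrn3, a makorin ubiquitin ligase gene, stood at 8.28 and 8.52 FPKM in clone 1, 13 and 12.8 in clone 2 and 9.84, 8.89, 9.98 and 8.87 in WT. The log2 fold change was -0.14 ± 0.07 (SE, limma adjusted p = 0.181) in clone 1 and 0.42 ± 0.07 (SE, limma adjusted p = 0.00923) in clone 2. In these neighbours both clone 2 libraries exceeded every WT library. Without clone 2 replicate 2, the clone 2 calls of Magel2 (0.52, adjusted p = 0.188) and Mkrn3 (0.44, adjusted p = 0.0843) were lost, and without WT replicate 2, Ndn (adjusted p = 0.0386) and Magel2 (adjusted p = 0.0276) passed as lower in clone 1.

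Clone 2 minus clone 1 was 0.32 ± 0.07 (log2 ± SE, limma adjusted p = 0.00725) for Snrpn and 0.91 ± 0.07 (log2 ± SE, limma adjusted p = 0.000177) for Ndn. It was 1.11 ± 0.16 (log2 ± SE, limma adjusted p = 0.00129) for Magel2 and 0.56 ± 0.08 (log2 ± SE, limma adjusted p = 0.00112) for Mkrn3. Ube3a, a ubiquitin ligase gene that is read from the maternal copy in neurons and from both copies in most other cells, stood at 29.2 and 19.3 FPKM in clone 1, 28.4 and 26.4 in clone 2 and 28.4, 26.3, 28.1 and 27.1 in WT. It was not called in any of the 4 comparisons. Atp10a, a phospholipid flippase gene at the far end, stood at 2.08 and 1.73 FPKM in clone 1, 1.06 and 1.09 in clone 2 and 1.32, 1.66, 1.28 and 1.26 in WT. Neither clone differed from WT at the threshold, at 0.29 ± 0.10 (log2 ± SE, limma adjusted p = 0.0880) for clone 1 and -0.19 ± 0.10 (log2 ± SE, limma adjusted p = 0.238) for clone 2, but clone 2 minus clone 1 passed at -0.48 ± 0.12 (log2 ± SE, limma adjusted p = 0.0121). That call was lost without clone 1 replicate 1 (adjusted p = 0.0533) or clone 2 replicate 2 (adjusted p = 0.0541), and without WT replicate 2 Atp10a passed as higher in clone 1 (adjusted p = 0.0432).

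The Kcnq1ot1 domain on distal chromosome 7 held maternally expressed genes that moved in clone 1 in both directions. Phlda2 (chr7:143501545-143503150, minus strand), a small pleckstrin homology domain gene known as a restraint on placental growth, stood at 9.37 and 9.43 FPKM in clone 1, 2.21 and 2.96 in clone 2 and 3.27, 5.31, 3.48 and 3.70 in WT. Clone 1 lay above WT at 1.09 ± 0.16 (log2 ± SE, limma adjusted p = 0.00576), and clone 2 minus clone 1 was -1.54 ± 0.18 (log2 ± SE, limma adjusted p = 0.000612). Slc22a18, an adjacent transporter gene, stood at 2.44 and 2.89 FPKM in clone 1, 1.11 and 0.872 in clone 2 and 1.15, 1.86, 1.27 and 1.23 in WT. It was higher in clone 1 at 0.63 ± 0.13 (log2 ± SE, limma adjusted p = 0.0176), with clone 2 minus clone 1 at -0.88 ± 0.15 (log2 ± SE, limma adjusted p = 0.00277). Both genes lay above all WT libraries in clone 1 and below them in clone 2, where neither passed against WT. Clone 2 gave -0.45 ± 0.16 (log2 ± SE, limma adjusted p = 0.0900) for Phlda2 and -0.25 ± 0.13 (log2 ± SE, limma adjusted p = 0.239) for Slc22a18.

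Cdkn1c, which encodes the cyclin-dependent kinase inhibitor p57, went the other way. It stood at 35.2 and 33 FPKM in clone 1, 48.8 and 45.9 in clone 2 and 39.7, 45.1, 43.6 and 43 in WT. Clone 1 was lower at -0.32 ± 0.06 (log2 ± SE, limma adjusted p = 0.012), clone 2 gave 0.14 ± 0.06 (log2 ± SE, limma adjusted p = 0.142), and clone 2 minus clone 1 was 0.46 ± 0.07 (log2 ± SE, limma adjusted p = 0.00136). The clone 1 calls of this domain were lost without clone 1 replicate 2, at adjusted p = 0.0838 for Cdkn1c, 0.0535 for Phlda2 and 0.123 for Slc22a18, and that of Slc22a18 also without WT replicate 4 (adjusted p = 0.0508). Ascl2, a basic helix-loop-helix gene of the trophoblast, and the antisense RNA Kcnq1ot1 were under 1 FPKM in all 8 libraries. Ascl2 stood at 0.772 and 0.992 FPKM in clone 1, 0.293 and 0.218 FPKM in clone 2 and 0.278 to 0.704 FPKM in WT, so clone 1 was above and clone 2 overlapped WT. Kcnq1ot1, the paternally expressed RNA that names the domain, stood at 0.323 and 0.501 FPKM in clone 1, 0.239 and 0.223 FPKM in clone 2 and 0.260 to 0.282 FPKM in WT. Clone 1 lay above and clone 2 below the WT range, and neither gene entered the main tests.

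The Igf2-H19 and Igf2r-Airn pairs gave few calls. Igf2, the paternally expressed insulin-like growth factor gene, stood at 36.3 and 36.6 FPKM in clone 1, 29.3 and 21.4 in clone 2 and 36.7, 42.3, 35.1 and 36.1 in WT. Clone 2 was lower at -0.56 ± 0.12 (log2 ± SE, limma adjusted p = 0.0227) and clone 1 gave -0.04 ± 0.12 (log2 ± SE, limma adjusted p = 0.848), with clone 2 minus clone 1 at -0.52 ± 0.14 (log2 ± SE, limma adjusted p = 0.0177). The clone 2 call was lost without clone 2 replicate 2 (adjusted p = 0.167) or WT replicate 4 (adjusted p = 0.0541), and its value was -0.34 without clone 2 replicate 2. The difference between the clones was lost without clone 1 replicate 1 (adjusted p = 0.0642), clone 1 replicate 2 (adjusted p = 0.0792) or clone 2 replicate 2 (adjusted p = 0.0762). H19, the maternally expressed non-coding RNA beside Igf2, was too low to be tested, at 0.0409 and 0.0515 FPKM in clone 1, 0.177 and 0.0398 in clone 2 and 0.389, 0.675, 0.430 and 0.238 in WT. All 4 null libraries of H19 lay below all WT libraries. In the fit that kept all genes H19 did not pass, at limma adjusted p = 0.0719 in clone 1, 0.129 in clone 2 and 0.592 over both. Igf2r, the maternally expressed receptor that clears IGF2, ranged from 19.03 to 22.6 FPKM and its antisense RNA Airn from 0.93 to 1.42 FPKM over the 8 libraries, and neither was called in any comparison. They overlap by 28354 bases on opposite strands.

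Of 3 retrogenes that lie inside other genes, Zrsr1 and Mcts2 passed as higher in clone 1, Zrsr1 also passed in clone 2, and the null libraries of all 3 lay above WT. These paternally expressed genes arose from reverse-transcribed mRNAs, and for Mcts2 with H13, Nap1l5 with Herc3 and Zrsr1 with Commd1 the annotation places the whole retrogene inside its host. Nap1l5, a nucleosome assembly protein family gene, stood at 1.60 and 1.28 FPKM in clone 1, 1.46 and 1.49 in clone 2 and 0.818, 0.603, 0.567 and 0.822 in WT. Every null library exceeded every WT library, with log2 fold changes of 0.52 ± 0.11 in clone 1 and 0.54 ± 0.11 in clone 2 (SE). Its WT mean of 0.702 FPKM was under the filter, which it passed only through the null libraries, so these values are given as a description. With a pseudocount of 0.1 they were 0.95 and 0.99. The host Herc3, a HECT family gene, ranged from 7.79 to 12.7 FPKM and was not called.

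Zrsr1, a U2AF1-related splicing factor gene, stood at 5.92 and 5.12 FPKM in clone 1, 5.55 and 4.79 in clone 2 and 3.28, 3.68, 3.71 and 3.59 in WT. All null libraries lay above WT, with log2 fold changes of 0.51 ± 0.09 (SE, limma adjusted p = 0.00985) in clone 1 and 0.43 ± 0.09 (SE, limma adjusted p = 0.0187) in clone 2. Its host Commd1 stood at 124 and 124 FPKM in clone 1, 152 and 146 in clone 2 and 138, 146, 147 and 149 in WT. It was lower in clone 1 at -0.22 ± 0.04 (log2 ± SE, limma adjusted p = 0.0103) and was not called in clone 2 at 0.04 ± 0.04 (log2 ± SE, limma adjusted p = 0.574). Mcts2, related to a translation re-initiation factor, stood at 27.7 and 28 FPKM in clone 1, 27.2 and 26.6 in clone 2 and 23.2, 24.9, 23.1 and 24.9 in WT. It passed in clone 1 at 0.20 ± 0.05 (log2 ± SE, limma adjusted p = 0.0301) and not in clone 2 at 0.16 ± 0.05 (log2 ± SE, limma adjusted p = 0.0753), with clone 2 minus clone 1 at -0.05 ± 0.06 (log2 ± SE, limma adjusted p = 0.537).

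The host of Mcts2, H13, which encodes signal peptide peptidase, went in the opposite direction. H13 stood at 17.6 and 16.3 FPKM in clone 1, 18.6 and 20.2 in clone 2 and 24, 22, 24.8 and 22.6 in WT. All null libraries were below all WT libraries, with log2 fold changes of -0.44 ± 0.07 (SE, limma adjusted p = 0.00671) in clone 1 and -0.25 ± 0.07 (SE, limma adjusted p = 0.0396) in clone 2. The ratio of Mcts2 to H13 was 1.57 and 1.72 in clone 1, 1.46 and 1.31 in clone 2 and 0.932 to 1.13 in WT. The ratio of Zrsr1 to Commd1 was 0.0476 and 0.0411 in clone 1, 0.0365 and 0.0329 in clone 2 and 0.0237 to 0.0252 in WT. That of Nap1l5 to Herc3 was 0.145 and 0.150 in clone 1, 0.158 and 0.191 in clone 2 and 0.04455 to 0.104 in WT. No null library overlapped WT in the ratios of Mcts2 to H13 and of Zrsr1 to Commd1. The same held for Nap1l5 to Herc3, but Nap1l5 passed the filter only through its null libraries, so its ratio is no support for a difference. How often ratios of other gene pairs separate in this way was not examined. No source used here says how reads of a nested gene were divided from those of its host.

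Leaving out a library changed these calls as follows. Without clone 1 replicate 2, the clone 1 calls of Commd1 (adjusted p = 0.0604), Mcts2 (0.111) and H13 (0.0542) were lost. The clone 1 call of Mcts2 was also lost without WT replicate 1, 3 or 4 (adjusted p = 0.0575 to 0.0817). Without clone 2 replicate 2, the clone 2 calls of Zrsr1 (adjusted p = 0.0802) and H13 (0.163) were lost. Zrsr1 was lost in clone 2 also without clone 2 replicate 1 (adjusted p = 0.0826) or WT replicate 4 (0.0502), and H13 without clone 2 replicate 1 (0.183) or WT replicate 1, 3 or 4 (0.0753 to 0.0881).

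**Figure D4:**
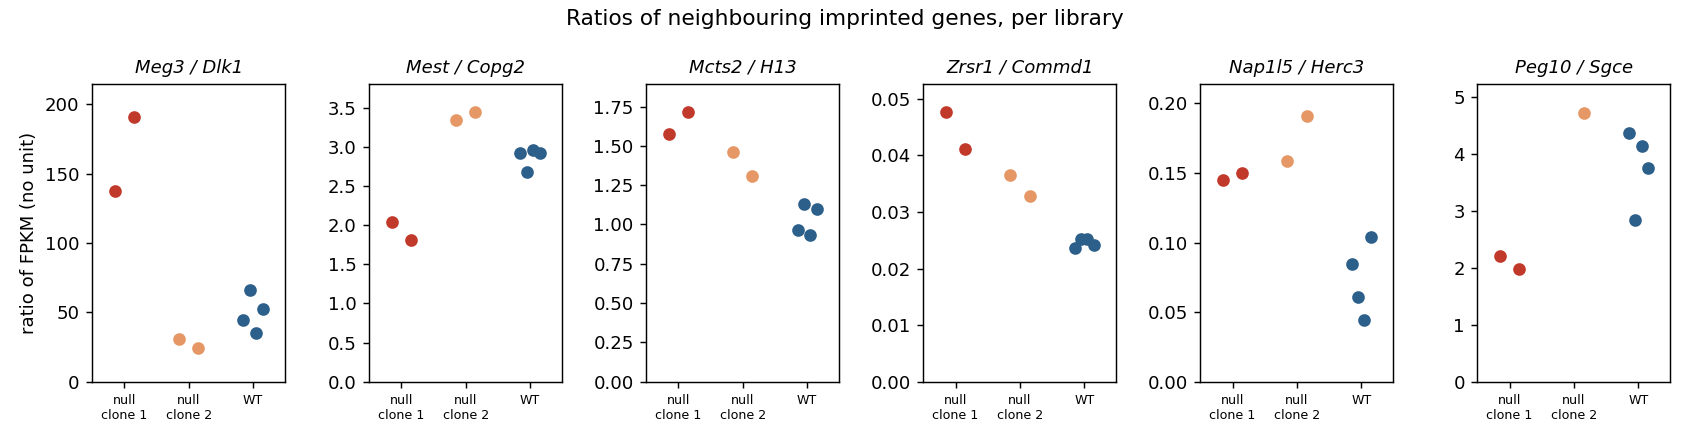
Ratio of the FPKM of neighbouring imprinted genes in each library of clone 1, clone 2 and WT, with a point per library and no ratio of Peg10 to Sgce for the library in which Peg10 was listed at 0. Meg3 over Dlk1 is highest in clone 1 at 137 and 191, and Mest over Copg2 is lowest there at 2.04 and 1.82. The retrogene over its host is higher in all null libraries than in WT for the 3 nested pairs, of which Nap1l5 passed the filter only through its null libraries.

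Over both clones, without a test of spread and leaving out Nap1l5 for the reason above, 6 of 36 members had all null libraries on one side of all WT libraries, beside 4.26% of all genes tested. Above were Snrpn, Zrsr1 and Mcts2, beside 1.03% of genes, and below were Sgce, H13 and Impact, beside 3.22%. Impact, a paternally expressed regulator of the translation kinase GCN2, stood at 42.9 and 37.3 FPKM in clone 1, 46.5 and 52.1 in clone 2 and 53.5, 56.9, 54.5 and 57.2 in WT. Its log2 fold change was -0.46 ± 0.07 (SE, limma adjusted p = 0.00576) in clone 1 and -0.17 ± 0.07 (SE, limma adjusted p = 0.126) in clone 2. Clone 2 minus clone 1 was 0.29 ± 0.08 (log2 ± SE, limma adjusted p = 0.017), a call lost without clone 1 replicate 2 (adjusted p = 0.0943) or clone 2 replicate 2 (adjusted p = 0.125). In null against WT, none of these 6 but Sgce passed, at limma adjusted p of 0.170 for Zrsr1, 0.351 for H13, 0.491 for Snrpn, 0.593 for Mcts2 and 0.776 for Impact.

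**Figure D5:**
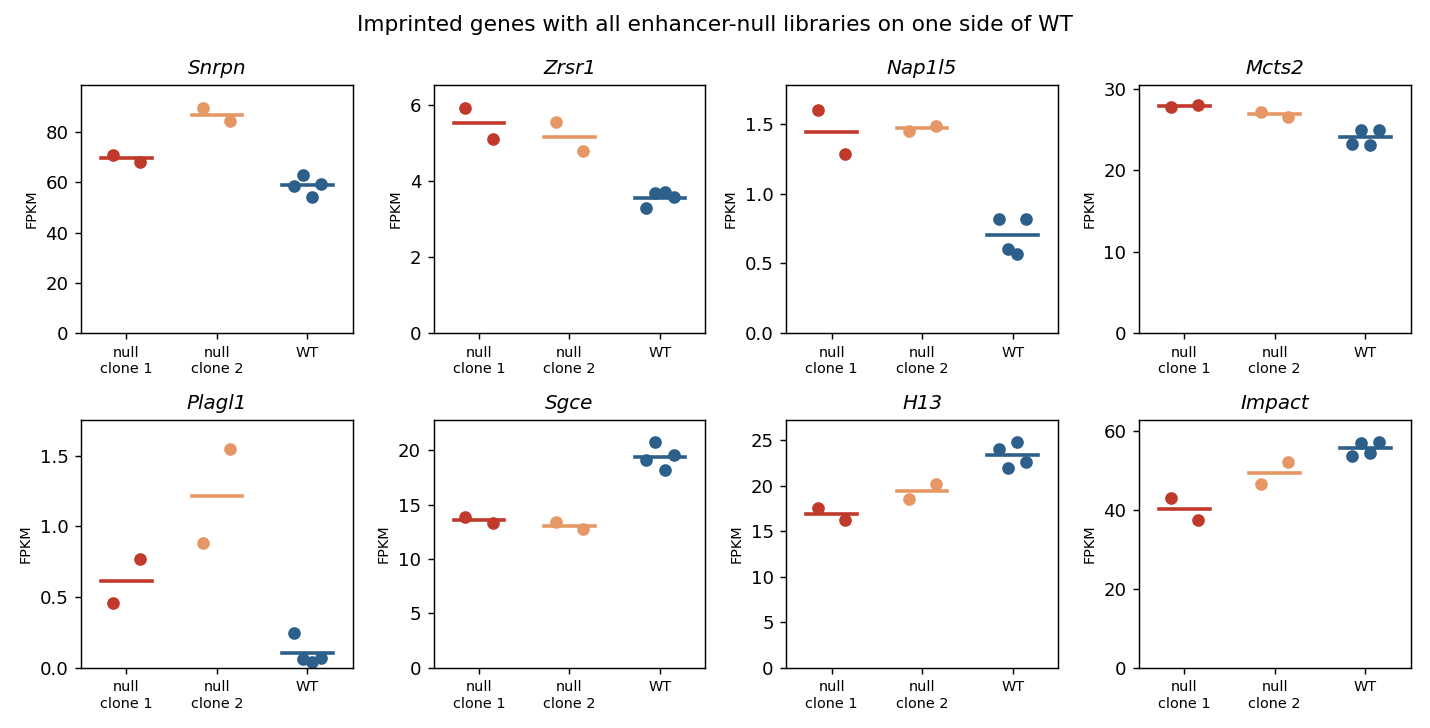
FPKM of 8 imprinted genes in the 2 libraries of clone 1, the 2 of clone 2 and the 4 of WT, with a point per library and a bar at the group mean. Snrpn, Zrsr1, Nap1l5, Mcts2 and Plagl1 have all 4 null libraries above WT, and Sgce, H13 and Impact have all 4 below.

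Plagl1 had the highest null to WT ratio of the low members. This paternally expressed zinc finger gene, also called Zac1, restrains cell growth and is known to regulate other imprinted genes. It stood at 0.457 and 0.771 FPKM in clone 1, 0.883 and 1.55 in clone 2 and 0.244, 0.0601, 0.0409 and 0.0713 in WT, with every null library above every WT library. Its mean of 0.5095 FPKM over all libraries kept it out of the main tests. In the fit that kept all genes its log2 fold change was 0.54 ± 0.14 (SE, limma adjusted p = 0.0748) in clone 1 and 0.99 ± 0.14 (SE, limma adjusted p = 0.0219) in clone 2, and 0.77 ± 0.16 (SE, limma adjusted p = 0.470) over both. The authors' deposited table gives mean reads of 74.5 in null and 6.21 in WT, a fold of 12.0. Of the other members too low for the main tests, none passed against WT in the fit that kept all genes.

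The authors' deposited table also holds a p-value per gene for null against WT, from a test that the table does not name. After Benjamini-Hochberg adjustment made here over 28134 genes with reads, 220 genes or 0.782% passed 0.05, and 8 of the 46 members with reads did. The deposited fold was above 1 for Snrpn (1.34), Nap1l5 (2.13), Zrsr1 (1.497), Mcts2 (1.17) and Plagl1 (12.0), and below 1 for Sgce (0.705), H13 (0.813) and H19 (0.196). All 8 are members named above for null libraries on one side of WT, and H19 and Plagl1 were too low for the main tests. Impact missed at an adjusted p of 0.0627, with a deposited fold of 0.818.

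Zdbf2, Inpp5f and Slc38a4, each listed with no other member in its cluster, were also called. Zdbf2, a paternally expressed zinc finger gene, stood at 31.8 and 25.1 FPKM in clone 1, 39 and 38 in clone 2 and 39.2, 33.6, 38.7 and 37.5 in WT. It was lower in clone 1 at -0.39 ± 0.09 (log2 ± SE, limma adjusted p = 0.0289). Clone 2 overlapped WT, and clone 2 minus clone 1 was 0.43 ± 0.11 (log2 ± SE, limma adjusted p = 0.0135). Inpp5f, a phosphoinositide phosphatase gene with an imprinted transcript, stood at 13.8 and 13.4 FPKM in clone 1, 19.6 and 21.3 in clone 2 and 15.8, 16, 16 and 16.5 in WT. Its log2 fold change was -0.22 ± 0.05 (SE, limma adjusted p = 0.0277) in clone 1, 0.33 ± 0.05 (SE, limma adjusted p = 0.00993) in clone 2 and 0.55 ± 0.06 (SE, limma adjusted p = 0.000511) for clone 2 minus clone 1, with clone 1 below and clone 2 above all WT libraries. Slc38a4, a paternally expressed amino acid transporter gene, stood at 16 and 14.8 FPKM in clone 1, 13.8 and 12.2 in clone 2 and 15.8, 15.9, 15 and 15.9 in WT. It was lower in clone 2 at -0.25 ± 0.06 (log2 ± SE, limma adjusted p = 0.0367). Clone 2 minus clone 1 was -0.23 ± 0.07 (log2 ± SE, limma adjusted p = 0.0378) for it.

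Leaving out a library ended most of these calls. The clone 1 calls of Zdbf2 and Inpp5f were lost without clone 1 replicate 2 (adjusted p = 0.167 and 0.108) and without WT replicate 1, 3 or 4 (adjusted p = 0.0622 to 0.0816), and that of Inpp5f after rescaling (adjusted p = 0.0557). Without clone 1 replicate 2 the Zdbf2 value was -0.22, and its difference between the clones, 0.27, was lost (adjusted p = 0.0637), as it was without clone 2 replicate 1 or 2 (adjusted p = 0.0570 and 0.0577). The clone 2 calls of Inpp5f and Slc38a4 were lost without clone 2 replicate 2 (adjusted p = 0.132 and 0.336), and that of Slc38a4 without any single WT library (adjusted p = 0.0602 to 0.0892). The difference of Slc38a4 between the clones was lost without clone 1 replicate 1, clone 2 replicate 2, or WT replicate 1, 3 or 4 (adjusted p = 0.0544 to 0.239), and was -0.15 without clone 2 replicate 2. Gnas stood at 307 and 298 FPKM in clone 1, 319 and 320.4 in clone 2 and 328, 315, 319.7 and 320.5 in WT and was not called in any comparison. Trappc9, a trafficking complex gene, ranged from 10.5 to 13.1 FPKM without a call, and Peg13, the paternally expressed RNA inside it, was at most 0.0652 FPKM and listed at 0 in clone 1 replicate 1.

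Promoter sequence was inspected for a motif linked to imprint upkeep. The zinc finger protein ZFP57 keeps methylation at imprinting control regions and binds the methylated hexamer TGCCGC, which reads GCGGCA on the other strand. RefSeq promoter windows (GRCm38.p6, 300 bases each, of which 50 follow the start) were matched for 39 of the 47 members. The hexamer occurred on either strand in 15 of 60 member windows (25.0%), beside 3813 of 32851 windows of all genes (11.6%), and in at least 1 window of 14 members. Member windows also held more CpG, with a median of 13 beside 7 over all windows, so the higher share is not corrected for base composition. A match is a description of the letters, and no binding or methylation was measured.

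Windows of 4 members with the hexamer are shown as a description. They were picked from the 14 members with the hexamer, and whether the hexamer goes with a change in level was not tested. Of the 4 shown, Grb10 and Mest were low in clone 1 and Meg3 was high in clone 1. Nap1l5 passed the filter only through its null libraries, so its level is no support for a difference. Where a gene has several windows the one with most CpG is given, each 5′ to 3′ on the strand of the gene with the hexamer in capitals. They lie at chr11:12037371-12037670, minus strand for Grb10, chr6:30737800-30738099, plus strand for Mest, chr12:109540746-109541045, plus strand for Meg3 and chr6:58907077-58907376, minus strand for Nap1l5.
Grb10: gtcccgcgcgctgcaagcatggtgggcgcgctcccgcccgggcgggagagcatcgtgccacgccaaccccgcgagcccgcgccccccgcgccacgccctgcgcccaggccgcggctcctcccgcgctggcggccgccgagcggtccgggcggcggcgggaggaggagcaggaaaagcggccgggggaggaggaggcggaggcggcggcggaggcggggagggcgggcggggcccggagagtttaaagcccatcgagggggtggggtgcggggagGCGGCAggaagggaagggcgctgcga
Mest: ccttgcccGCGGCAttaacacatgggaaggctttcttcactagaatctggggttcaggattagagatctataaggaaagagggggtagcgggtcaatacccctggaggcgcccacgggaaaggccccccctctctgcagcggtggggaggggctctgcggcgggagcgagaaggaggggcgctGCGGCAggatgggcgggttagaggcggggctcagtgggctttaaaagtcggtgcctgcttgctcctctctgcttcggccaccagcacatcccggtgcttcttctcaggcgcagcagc
Meg3: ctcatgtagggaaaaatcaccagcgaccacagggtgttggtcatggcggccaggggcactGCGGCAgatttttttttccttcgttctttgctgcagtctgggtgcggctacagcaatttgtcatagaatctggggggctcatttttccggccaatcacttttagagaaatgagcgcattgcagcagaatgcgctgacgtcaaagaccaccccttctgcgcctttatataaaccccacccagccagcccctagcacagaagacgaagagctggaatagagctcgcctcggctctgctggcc
Nap1l5: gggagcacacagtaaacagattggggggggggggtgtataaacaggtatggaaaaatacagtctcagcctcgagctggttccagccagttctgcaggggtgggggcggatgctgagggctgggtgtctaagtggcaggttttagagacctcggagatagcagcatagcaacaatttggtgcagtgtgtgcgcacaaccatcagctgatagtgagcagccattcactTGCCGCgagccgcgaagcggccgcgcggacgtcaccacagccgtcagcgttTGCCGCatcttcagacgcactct
The Grb10 and Meg3 windows held 1 match each and the Mest and Nap1l5 windows 2 each.

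Other imprinted genes outside the 47 were called mainly in the clone comparisons. Of 44 listed, 42 were in the table and 21 were tested. In null cells of both clones against WT, limma called 0 of these, with 2 at an unadjusted p under 0.05. In clone 1, 3 were higher and 6 lower, or 42.9% beside 15.6% of all genes. After median-of-ratios rescaling, 4 were higher and 2 lower in clone 1, so the split between directions depended on the scaling. In clone 2, 2 were higher and 2 lower, or 19.1% beside 14.0%, and between clone 2 and clone 1, 6 were higher and 4 lower in clone 2, or 47.6% beside 39.9%. The median log2 fold change of the 21 was -0.12 in clone 1, -0.06 in clone 2 and -0.09 for clone 2 minus clone 1.

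Peg12, a paternally expressed gene beside Mkrn3 and Ndn, stood at 9.83 and 9.55 FPKM in clone 1, 29.8 and 36 in clone 2 and 18.4, 13.8, 18.2 and 17 in WT. Clone 1 was lower at -0.73 ± 0.12 (log2 ± SE, limma adjusted p = 0.00869) and clone 2 higher at 0.93 ± 0.12 (log2 ± SE, limma adjusted p = 0.00453), and neither overlapped WT. Adam23, which encodes a cell adhesion protein, stood at 25.6 and 18.1 FPKM in clone 1, 7.30 and 6.91 in clone 2 and 11.2, 13.8, 11.8 and 12.4 in WT. It was higher in clone 1 at 0.76 ± 0.13 (log2 ± SE, limma adjusted p = 0.00941) and lower in clone 2 at -0.71 ± 0.13 (log2 ± SE, limma adjusted p = 0.0136). Dhcr7, an enzyme of cholesterol synthesis, was lower in clone 2 at -0.52 ± 0.05 (log2 ± SE, limma adjusted p = 0.0017), and Smoc1, an extracellular matrix protein gene, higher there at 0.51 ± 0.14 (log2 ± SE, limma adjusted p = 0.0437). In clone 1, Gab1, a docking protein gene, was higher at 0.47 ± 0.07 (log2 ± SE, limma adjusted p = 0.00573) and Tssc4, a splicing factor gene of the Kcnq1ot1 domain, lower at -0.37 ± 0.06 (log2 ± SE, limma adjusted p = 0.00749).

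Some factors that maintain imprints were called in clone 1, and between the clones the share called was near that of all genes. Of 10 listed, 9 were tested, and limma called 0 in null against WT, with 0 at an unadjusted p under 0.05, and 0 in clone 2, with 1. In clone 1, 3 of the 9 were lower, or 33.3% beside 15.6% of all genes called and 11.5% called lower. These were Uhrf1, which brings DNA methyltransferase 1 to newly copied DNA, the chromatin remodeller gene Hells, and Dnmt1, the maintenance DNA methyltransferase. Uhrf1 stood at 146 and 139 FPKM in clone 1, 161 and 160.1 in clone 2 and 162, 158, 160.5 and 162 in WT, with a log2 fold change of -0.17 ± 0.03 (SE, limma adjusted p = 0.0124) in clone 1. Hells and Dnmt1 were lower in clone 1 at -0.33 ± 0.09 (log2 ± SE, limma adjusted p = 0.0419) and -0.19 ± 0.05 (log2 ± SE, limma adjusted p = 0.0436). In clone 1 replicates 1 and 2, Hells stood at 71.5 and 56.8 FPKM and Dnmt1 at 76.9 and 69.7 FPKM. For all 3 genes the lower library was clone 1 replicate 2, which stood apart in its RNA makeup. Clone 2 was higher than clone 1 for 4 of the 9, or 44.4% beside 39.9% of all genes called. The 3 clone 1 calls became 1 after rescaling, 1 with no filter, 1 without trend and robust moderation and 0 with the replicate block. They also depended on which clone 1 library was kept.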

How the data were processed

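PolyA RNA was sequenced from progenitor cells made from E14 stem cells, in 4 libraries of enhancer-null cells (2 per clone) and 4 WT libraries. Per the file headers, the authors calculated the FPKM of each library. Beside them the deposited table lists a mean read count for each genotype, a signal of the authors with no stated scaling, the authors' fold or ratio of these means, and the authors' p-value from an unnamed test. Per the submitters' processing notes, FastQC, SAMtools, TopHat2, Cufflinks, DESeq2 and the builds GRCm38 and mm10 were used, without roles or versions. Read counts per library were not used here, so depth per library and counting error are unknown.

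Null columns were matched to their clone, and not to a single sample. Limma 3.58.1 in R 4.3.3, with trend and robust moderation, was fitted to log2(FPKM + 1) of all 14516 genes with a mean of at least 1 FPKM, and p-values were adjusted by Benjamini-Hochberg with a threshold of 0.05. The comparison of null with WT had 2 groups of 4. For comparisons of clones, 3 groups were fitted with a shared spread, so their p-values measure only the spread between libraries of a line. A log2 fold change on this scale understates changes of low genes. A zero in a gene with at least 100 mean reads was set to missing (19 genes, Peg10 among the members). The fit was tested on simulated data. Alternatives were a pseudocount of 0.1, no filter, median-of-ratios rescaling, limma without trend or robust moderation, a replicate block, correlated libraries of a line, the mean of both clones in the fit of 3 groups, zeros kept (chosen after seeing the data) and leaving out each library.

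Positions are from GENCODE M21 (GRCm38) and promoter windows from RefSeq (GRCm38.p6). The members and lists were chosen with earlier results of these data known. Members were named with values if called in any comparison, if in the cluster of a called member, if among the 5 highest, or if listed at 0 in a library, and other imprinted genes and upkeep factors if among the 4 smallest adjusted p of a comparison.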

Additional observations from a re-analysis of the deposited data

Results flagged for a closer look

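Single WT libraries stood apart from the other 3 WT libraries in 3 members, out of 74 groups of 4 libraries examined, of which chance alone gives about 1 in 20. Ndn was 46.4 FPKM in WT replicate 2 against 52.4 to 53.4 FPKM in the others. Atp10a was 1.66 FPKM in WT replicate 2 against 1.26 to 1.32 FPKM. Slc38a4 was 15.0 FPKM in WT replicate 3 against 15.8 to 15.9 FPKM.

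The effects of the clones against WT differed, by the limma test of clone 2 minus clone 1, for 25 members. That is 67.6% of the 37 tested, beside 39.9% of all genes tested (24.9% higher and 15.0% lower in clone 2). On the log2 scale the difference was above 0, so that clone 2 was higher, for Grb10 (2.68), Mest (1.64), Peg3 (1.60), Dlk1 (1.39), Magel2 (1.11), Peg10 (1.06, with 1 usable library of clone 2), Ndn (0.91), Asb4 (0.83), Copg2 (0.82), Mkrn3 (0.56), Inpp5f (0.55), Cdkn1c (0.46), Zdbf2 (0.43), Ppp1r9a (0.32), Snrpn (0.32), Impact (0.29) and Commd1 (0.26). It was below 0 for Phlda2 (-1.54), Slc22a18 (-0.88), Meg3 (-0.61), Igf2 (-0.52), Mirg (-0.49), Atp10a (-0.48), Rian (-0.34) and Slc38a4 (-0.23). Of these 25 calls, 19 held in each fit that left out 1 library and gave a value. For Peg10 these were 7 fits, since it could not be fitted without clone 2 replicate 2. The 6 that did not were those of Igf2, Ppp1r9a, Atp10a, Impact, Zdbf2 and Slc38a4. Of the pluripotency markers, Pou5f1 was at 14.3 and 10.9 FPKM in clone 2 against 52.4 and 48.5 FPKM in clone 1. Nanog and Zfp42 were also lower in clone 2. Esrrb and Klf4, under 1 FPKM throughout, were higher there. Esrrb was at 0.537 and 0.475 FPKM in clone 2 against 0.241 and 0.192 FPKM in clone 1. Klf4 was at 0.599 and 0.753 FPKM against 0.215 and 0.361 FPKM. The part of these markers in the differences between the clones was not tested.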

How the results depend on the processing

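The 1 member called for null against WT became 0 with no filter, with the replicate block and with libraries of a line treated as correlated (consensus correlation 0.657). It became 0 to 1 when 1 library was left out. The count was 9 when the average of the clones was taken from the fit of 3 groups, beside 105 of all 14516 genes tested. The 24 member calls of clone 1 became 4 with the replicate block and 9 to 27 when 1 library was left out, and the 15 of clone 2 became 1 and 5 to 15. The 25 calls of clone 2 against clone 1 stayed between 19 and 25 under the alternatives. The 9 other imprinted genes called in clone 1 became 5 with no filter, 0 with the block and 2 to 10 with a library left out, and the 4 in clone 2 became 0 with the block and 2 to 4. The 3 upkeep factors in clone 1 became 1 with no filter, 1 after rescaling, 1 without trend and robust moderation, 0 with the block and 0 to 6 with a library left out, and the 4 between the clones became 2 with the block and 1 to 6. With zeros kept, Peg10 reversed for clone 2 against clone 1, to -1.91, because its listed 0 then counts as a value. The cause of the other changes was not tested. Replicate numbers did not pair libraries (correlations of their deviations -0.0767, -0.00766 and -0.0211), and the block left 43 of 2271 calls over all genes in clone 1 and 45 of 2037 in clone 2. The 36 members at 1 FPKM or more in WT stayed 36 after rescaling. Precision is limited by 2 libraries per clone and by values near 1 FPKM, where the pseudocount weighs most.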
